A study of Mus musculus with 2 samples.

Results

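The 2 Ctla2 genes, Ctla2a and Ctla2b, and 8 cathepsin genes (Ctsl, Ctsb, Ctss, Ctsc, Ctsz, Ctsw, Ctsh and Ctsd) were followed in mouse T cells with and without exposure to retinal pigment epithelium (RPE), a dark cell sheet that supports the photoreceptors. The members were every probe set, a group of short probes read out as 1 signal, that the platform annotation assigned to exactly 1 of these symbols. This gave 20 probe sets for the 10 genes, out of 34945 probe sets for 18193 genes on the Affymetrix array. The series holds 2 arrays, 1 of control T cells and 1 of T cells exposed to RPE. Both samples were labelled as male mice of C57 BL/6 background aged 6 weeks, no agent other than the RPE is named, and no length of exposure. The title of the control sample reads CD4 T cells, whereas the tissue given for the exposed sample was RPE in primary culture.

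Cathepsins are proteases of the lysosome. Most are papain-like cysteine proteases, made as inactive precursors whose N-terminal propeptide blocks the active site until it is cleaved off in the acidic lysosome. Ctla2a and Ctla2b were first isolated from activated T cells and encode small proteins that resemble this propeptide without a protease domain. The Ctla2a product inhibits cathepsin L, and cultured RPE has been reported to produce it and to act on T cells through it. That report concerns the product made by RPE, whereas the arrays read transcripts in the T-cell samples. The other cathepsins are followed as relatives of cathepsin L and not as known targets.

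Each group had a single array, which limits the precision, so no difference could be tested or set against a spread between cultures. A difference is given as the log2 signal of the RPE-exposed array minus that of the control array, beside the range that held the central 95% of probe sets of similar level (the like-level range). Signals are the deposited linear intensities in arbitrary units. A signal counted as measured above a floor at the array's median, 15.9 in control and 16 in exposed cells. Levels of different probe sets are not compared, because each binds with its own strength.

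Both Ctla2 genes were higher in RPE-exposed T cells. Their probe sets lay at the upper edge of what was seen at their level, and no cathepsin came close to them. The Ctla2a probe set (1448471_a_at) read 697.6 in the control sample and 1376.0 after exposure. That is 1.97-fold higher, a log2 difference of 0.98 against a like-level range of -0.35 to 0.42, and of the 911 probe sets in its level class only Ctla2a itself was this high. The Ctla2b probe set (1452352_at) read 224.6 and 602.9. The 2.68-fold difference (log2 1.42, like-level range -0.47 to 0.50) was the highest among the 910 probe sets of its class and ranked 22 among all 20258 probe sets compared, where Ctla2a ranked 115.

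A further probe set, 1416811_s_at, is annotated to both Ctla2 genes and so is no member. It read 755.4 without and 1692.8 with exposure, 2.24-fold higher (log2 1.16), a value between those of the single-gene probe sets. The genes are close paralogs whose transcripts can bind each other's probes, so the 3 values may share signal and are not separate measurements of each gene. Each gene had only 1 probe set of its own. The log2 difference of Ctla2b exceeded that of Ctla2a by 0.44. For scale, probe sets of the same gene differed among themselves with a pooled SD of 0.22 at gene signals from 100 to 500 (2198 genes) and of 0.14 at 500 or more (497 genes), a spread of probes and not of cultures.

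**Figure D1:**
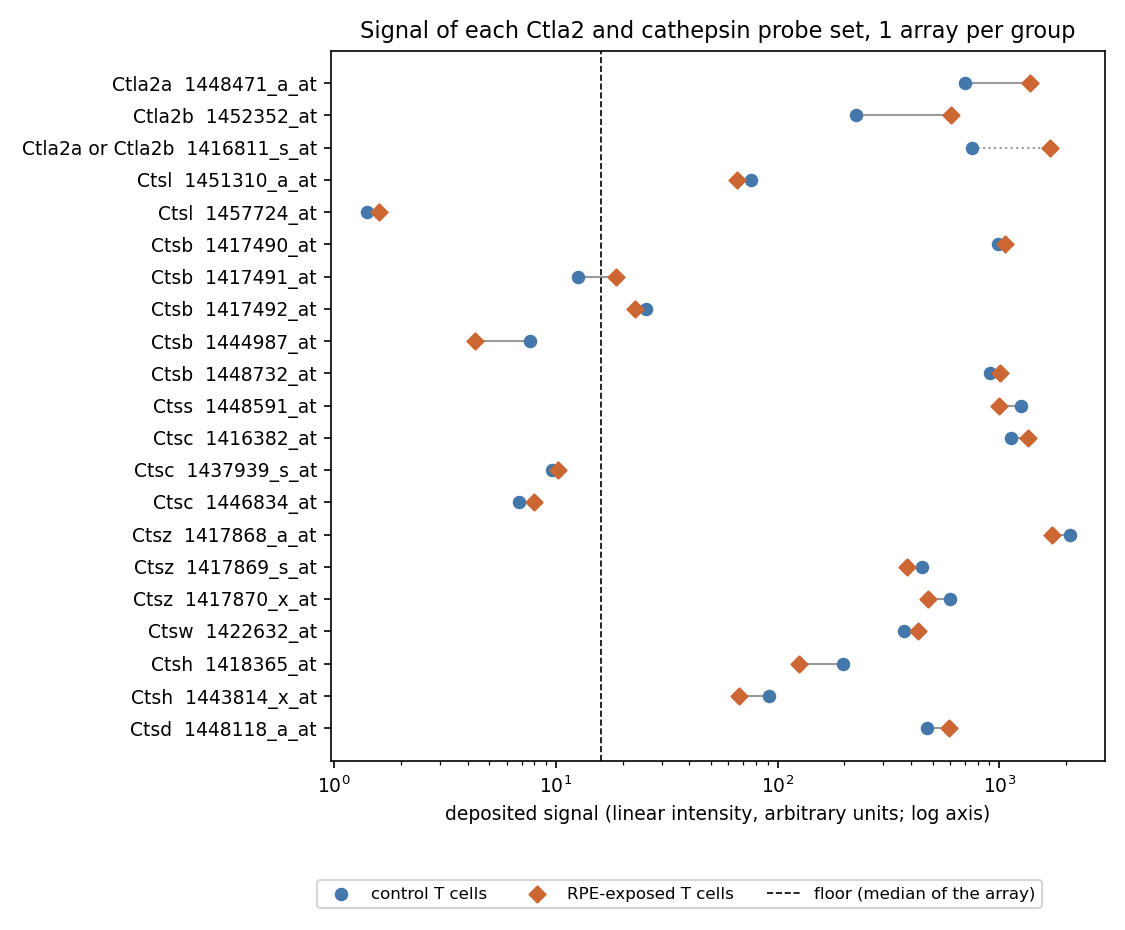
Deposited signal of each member probe set on a log axis, with circles for the control array and diamonds for the RPE-exposed array; the dotted line joins the probe set shared by both Ctla2 genes and the dashed line is the floor of 16. The 3 Ctla2 rows lie far apart between the arrays, from 697.6 to 1376.0 for Ctla2a, while most cathepsin pairs nearly touch.

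The sequences upstream of the Ctla2 starts are shown because both genes differed in the same direction and lie close together. RefSeq (GRCm38.p6) held promoter windows for 7 of the 10 genes. The 250 bases before the annotated start are given 5′ to 3′ on the minus strand of chromosome 13, for Ctla2a at chr13:60936626-60936875, the more upstream of its 2 listed starts, and for Ctla2b at chr13:60897448-60897697. RefSeq's model of Ctla2b reaches further upstream than the start used. Capitals mark the only match to TGANTCA, the AP-1 consensus, searched on both strands.
Ctla2a: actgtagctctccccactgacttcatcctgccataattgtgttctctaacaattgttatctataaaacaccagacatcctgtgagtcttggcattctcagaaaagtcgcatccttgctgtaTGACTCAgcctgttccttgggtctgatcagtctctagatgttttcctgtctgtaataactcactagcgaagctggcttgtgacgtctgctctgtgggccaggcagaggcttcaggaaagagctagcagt
Ctla2b: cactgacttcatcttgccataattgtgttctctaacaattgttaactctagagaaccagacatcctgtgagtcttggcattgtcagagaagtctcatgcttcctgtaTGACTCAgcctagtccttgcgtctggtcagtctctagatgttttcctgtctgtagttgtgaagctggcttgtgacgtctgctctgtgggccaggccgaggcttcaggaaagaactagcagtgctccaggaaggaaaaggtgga

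The Ctla2 windows were near copies of each other. In a global alignment with free ends, 228 bases aligned and 208 of them, 91.2%, were identical, with 1 gap of 8 bases. The capitalised match began 129 bases before the Ctla2a start and 143 bases before the Ctla2b start, at the same place in the alignment. AP-1, a dimer of Jun and Fos proteins, is induced by T-cell activation, and 6.75% of all 32851 windows of this length held the motif.

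Other motifs searched on both strands were common or not shared by the pair. The letters GGAAA, the core bound by NFAT, occurred 2 times in the Ctla2a and 3 times in the Ctla2b window, and at least once in 55.6% of all windows. The E-box CANNTG occurred once in each (at least once in 66.2% of windows). The STAT motif TTCNNNGAA was found once in the Ctla2a window and not in the Ctla2b window (7.02% of windows), and the half-site AGGTCA was in neither (14% of windows). The palindromic E-box CACGTG, which lies in the element bound by the lysosomal regulator Tfeb and is also a CANNTG match, was absent from both Ctla2 windows, present 2 times before Ctsd and once before Ctsl, and held by 6.02% of windows. A match describes letters only, and nothing on binding was measured.

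In chromosomal order the Ctla2 genes open a group of cathepsin genes, most of which are known for expression in the placenta. From Ctla2b to Cts3 the RefSeq table lists 20 genes, 12 of them protein-coding, with the placental genes Tpbpb and Tpbpa beside Ctla2a. None of the 8 cathepsins of the group (Ctsj, Ctsq, Ctsr, Cts6, Cts8, Cts7, Ctsm and Cts3) was above the floor on either array. The signals of their brightest probe sets ran from 0.3 to 8.9. Tpbpb gave 9.8 in control and 2.5 in exposed cells and Tpbpa 2.7 and 6.2, also under the floor. Among the measured genes of this stretch only the Ctla2 pair was above it, and Ctsl, further along the same chromosome, had its own low signal.

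**Figure D2:**
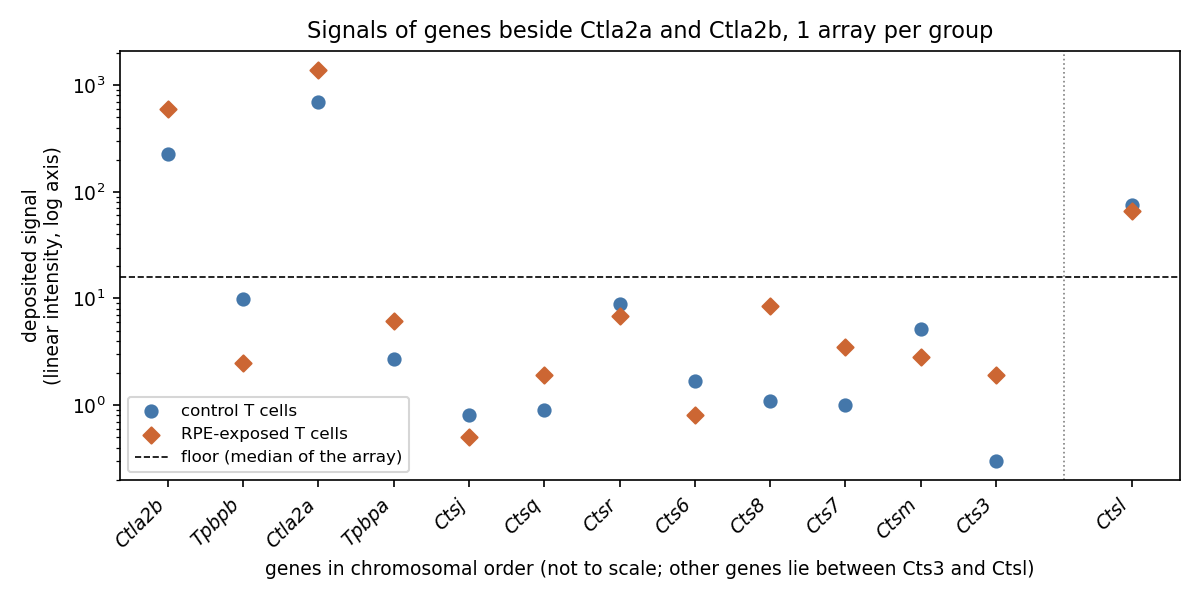
Deposited signal on a log axis (circles control, diamonds RPE-exposed, brightest probe set of each gene) for genes in the chromosomal order around the Ctla2 pair, not to scale. Ctla2b and Ctla2a stand above the floor of 16 with the exposed array higher, the genes between Ctla2a and Cts3 stay below 10 on both arrays in every case shown, and Ctsl lies at 75.6 and 65.6.

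No cathepsin probe set was 2-fold different. Of the 20 member probe sets, 16 were above the floor on at least 1 array and 4 on neither. By the rule of at least 2-fold, 1 of these 16 (6.25%), that of Ctla2b, was higher, beside 0.508% of all 20258 probe sets compared. None was lower, beside 0.691% of all. With each array centred on its median, Ctla2a also passed (log2 1.01), making 2 of 16, beside 117 of all 20258. The 14 cathepsin probe sets compared ran from -0.66 to 0.33, 6 positive and 8 negative, with a median of -0.18, beside a median of -0.0078 and 48.6% positive over all. That median counts Ctsb, Ctsz and Ctsh more than once. Among the 6 positive, Ctsb 1417491_at (12.6 and 18.6) passed the floor on the exposed array only, which fixed its sign as positive. Taken by gene, with the brightest probe set standing for each, 4 cathepsins were positive and 4 negative. Their median was -0.052, beside -0.0096 over all genes compared.

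Ctsl encodes cathepsin L, the protease the Ctla2a product inhibits. Its probe set 1451310_a_at read 75.6 without and 65.6 with exposure, 1.15-fold lower. The log2 difference of -0.20 lay well inside its like-level range of -0.69 to 0.65. A second probe set, 1457724_at, read 1.4 and 1.6, under the floor. The log2 difference of Ctla2a exceeded that of Ctsl by 1.18, and that of Ctla2b by 1.63. Over all 8 cathepsins, the excess of Ctla2a ran from 0.65 (over Ctsd) to 1.64 (over Ctsh).

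Ctsb, Ctsc, Ctsw and Ctsd had small positive differences, all within their like-level ranges. Ctsb encodes cathepsin B, an abundant lysosomal cysteine protease that also trims peptides from the C terminus. Its bright probe sets gave 984.3 and 1055.2 (1417490_at, log2 0.10) and 905.7 and 1001.0 (1448732_at, log2 0.14). The 3 dim ones did not follow them uniformly. Probe set 1417492_at read 25.4 and 22.7 (log2 -0.16), 1417491_at crossed the floor with exposure (12.6 and 18.6, at least 1.17-fold higher), and 1444987_at stayed under it (7.6 and 4.3).

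Ctsc encodes cathepsin C, the dipeptidyl peptidase that activates granzymes in cytotoxic granules. Probe set 1416382_at read 1125.7 and 1342.1, 1.19-fold higher (log2 0.25). The other Ctsc probe sets were under the floor, at 9.6 and 10.2 (1437939_s_at) and at 6.8 and 8.0 (1446834_at). Ctsw encodes cathepsin W, a protease of CD8 T cells and natural killer cells, and gave 369.5 and 428.0 (1422632_at, log2 0.21). Ctsd encodes cathepsin D, the only aspartic protease among the members, and had the highest log2 difference of the cathepsins, 0.33 (1448118_a_at, 473.6 and 594.5, 1.26-fold higher). In its level class, 50 of 911 probe sets were as high or higher.

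Ctss, Ctsz and Ctsh were lower in exposed cells on every probe set. Ctsh encodes cathepsin H, an aminopeptidase, and gave 196.5 in control and 124.2 in exposed cells (1418365_at). This 1.58-fold lower signal (log2 -0.66) was the largest cathepsin difference and lay under its like-level range of -0.52 to 0.53. The second Ctsh probe set gave 91.4 and 66.6 (1443814_x_at, log2 -0.46), inside its range. Together they averaged -0.56 ± 0.15 (SD over 2 probe sets).

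Ctsz encodes cathepsin Z, a carboxypeptidase, and its 3 probe sets agreed closely, at -0.28 ± 0.052 (SD over 3 probe sets). The signals were 2072.6 and 1728.0 (1417868_a_at), 448.6 and 381.4 (1417869_s_at) and 598.4 and 474.6 (1417870_x_at). The first, at -0.26, lay just under its like-level range of -0.22 to 0.31. The names of the 3 mark probes shared between transcripts or with other sequences, so their agreement may rest on shared probes. Ctss encodes cathepsin S, which degrades the invariant chain in B cells and dendritic cells, and gave 1256.0 and 992.9 (1448591_at). Its log2 difference of -0.34 was close to the lower end of its range, -0.35, and 27 of 911 probe sets in its class were as low or lower.

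**Figure D3:**
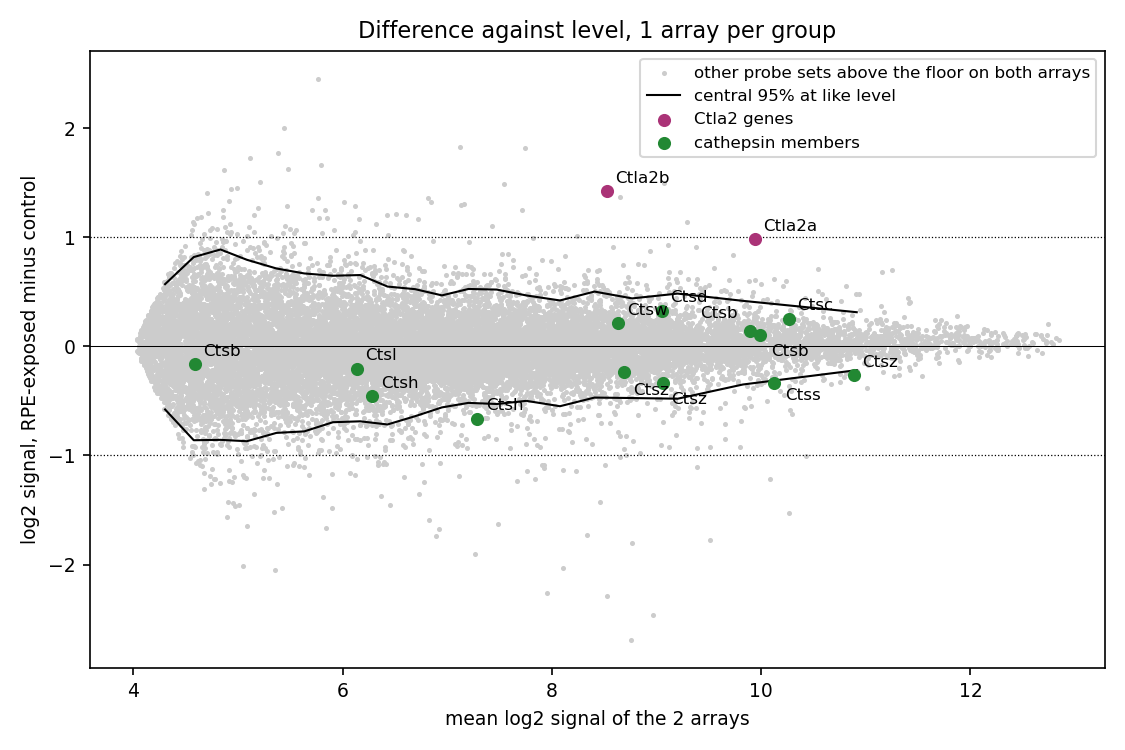
Log2 difference, RPE-exposed minus control, against the mean log2 signal for every probe set above the floor on both arrays (grey), with the central 95% at like level (black lines) and 2-fold (dotted). Both Ctla2 points (0.98 and 1.42) lie above the upper line, 1 point of Ctsh (-0.66) and 1 of Ctsz (-0.26) lie under the lower one, and the other 11 member points lie between the lines.

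Markers of B cells were mostly lower too, those of macrophages and mast cells were dim, and their part in these differences was not tested. In bulk RNA, fewer cells of a type and less RNA per cell cannot be told apart. Of 11 B-cell genes on the array, 10 were above the floor and 9 of these were negative (median -0.60), and their signals summed to 2526.2 without and 1625.4 with exposure. The B-cell coactivator Pou2af1 gave 572.0 and 298.6, the surface gene Ms4a1 618.5 and 443.6, and Vpreb3 64.4 and 26.8. Fcer2a (0.02) and Pax5 (-0.15) differed least. Of 14 macrophage and dendritic-cell genes 10 were above the floor, 6 negative and 4 positive, with a median of -0.31 and a summed signal of 284.9 and 222.2. All were dim, with control signals of at most 44.4. The lysozyme gene Lyz1 (41.3 and 7.5, the second under the floor, at least 2.58-fold lower) was the only one past 2-fold by its brightest probe set. Cd68 gave 44.4 and 30.6, Flt3 -0.68, Lyz2 -0.59 and Itgax -0.19. Csf1r gave 29.1 and 31.4, and another of its probe sets 2.9 and 34.5. Mrc1 (7.2 and 19.8), Adgre1 (15.2 and 17.8) and Fcgr1 (12.6 and 17.0) crossed the floor with exposure. That fixed their sign as positive, as it fixed that of Lyz1 as negative. Mast-cell and basophil genes were near the floor, with 5 of 8 above it and a summed signal of 160.3 and 108.5. Cma1 (31.2 and 13.1), Mcpt8 (28.5 and 4.0) and Ms4a2 (21.9 and 13.8) were above it in control only, which fixed their sign as negative. The list median of -0.45 was the value of Ms4a2. Kit (36.0 and 33.1) and Cpa3 (23.1 and 20.2), above the floor on both arrays, were slightly negative. Tpsb2, under it on both, gave 6.1 and 13.1. No listed marker of these 3 types read 0.

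Genes of cytotoxic cells were more often positive than negative, most by small amounts. Of 9 CD8 T-cell and natural killer-cell genes, 7 were above the floor, 5 positive and 2 negative. Their median was 0.11, from 0.016 to 0.26 over the other processing choices, and the 9 signals summed to 3388.9 without and 3889.5 with exposure. Cd8b1, a chain of the CD8 coreceptor, gave 706.4 and 983.9 (log2 0.48, above its like-level range of -0.35 to 0.42), and Cd8a gave 568.8 and 694.6. So CD8 transcripts were measured in the sample titled as CD4 T cells, where Cd4 itself gave 287.0, with 271.1 in exposed cells. The 2 probe sets of Cd4 disagreed in sign and averaged 0.26 ± 0.48 (SD), and the 5 of Cd8a, 4 of them positive, averaged 0.27 ± 0.24 (SD). Klrk1 (0.30), Nkg7 (0.02, 1005.2 and 1016.3), Klrd1 (-0.02) and Ncr1 (-0.27) were the others named. The 11 T-cell genes had a median of -0.013 and a summed signal of 14461.2 and 15628.6, with Cd3d at 3073.4 and 3505.9, Cd2 at 2329.9 and 2212.2, Cd6 at 0.25 and Trat1 at -0.51.

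Markers of RPE were at or near background in both samples. Of 18 listed, 15 were under the floor on both arrays, and the other 3 (Mitf, Pmel and Rdh5) had no signal above 18.3. Rpe65, which defines the visual cycle of these cells, read 5.3 in control and 2.3 in exposed cells. None read 0, and the summed signal was 142.7 and 130.2.

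The other genes of the pathway were taken from lists of related genes, with 0.437% of all 10995 genes compared at least 2-fold higher, 0.628% at least 2-fold lower, and a median of -0.0096. Each value is that of the gene's brightest probe set. Among the genes named below, the probe sets of Ctse, Ppt1, Psap, M6pr, Scarb2, Vps35, Lamp2, Laptm5, Atp6v1a, Lamtor1 and Mcoln1 disagreed in sign. The remaining cathepsins were mostly undetected, 12 of 15 being under the floor. The 3 above it were positive with a median of 0.22: the serine carboxypeptidase Ctsa (357.4 and 415.5), the aspartic protease Ctse (398.1 and 466.1) and the cysteine protease Ctso (177.7 and 188.0). Those of Ctse averaged 0.022 ± 0.29 (SD over 2 probe sets).

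Other protease inhibitors were mixed in direction. Of 19 cystatins and related inhibitors on the array, 6 were above the floor, 2 positive and 4 negative, with a median of -0.19 and none 2-fold different. Cystatin B, Cstb, an inhibitor of cathepsins in the cytosol, gave 1029.9 and 948.7 (log2 -0.12). Cst7, cystatin F, which acts on cathepsin C in granules, gave 497.1 and 527.3 (0.09). The granzyme B inhibitor gene Serpinb9 gave 1341.1 and 1007.1 (-0.41) and Serpinb6b 947.9 and 639.7 (-0.57), both under the lower end of their like-level range, -0.35. The dim Serpinb1a gave 20.5 and 26.1 (0.35).

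Among 8 genes of cathepsin maturation and lysosomal processing, 3 were positive and 5 negative (median -0.14), with none 2-fold different. Grn, the progranulin precursor, gave 373.9 and 218.2 (log2 -0.78, with 3 probe sets at -0.64 ± 0.27, SD). Ifi30, a lysosomal thiol reductase of antigen-presenting cells, gave 1115.3 and 754.3 (-0.56). Like-level ranges ended at -0.55 and -0.35, above both values. Psap, the prosaposin precursor, gave 786.7 and 741.4, while Scpep1 (0.35) and Ppt1 (0.20) were the highest.

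Genes that deliver proteases to the lysosome were mixed. Of 12 sorting genes, 5 were positive and 7 negative, with a median of -0.046. Gnptab, which makes the mannose 6-phosphate tag of lysosomal enzymes, gave 335.2 and 473.4 (log2 0.50, above its like-level range of -0.47 to 0.44, with 3 probe sets at 0.46 ± 0.16, SD). Its partner Gnptg was at -0.30 and the receptor gene M6pr at -0.11 (1108.9 and 1029.2). Scarb2 gave 0.25, Vps35 0.05 and Gga3 -0.18. The 1 gene past 2-fold was Sort1, the sorting receptor sortilin, which crossed the floor with exposure (10.4 and 34.8, at least 2.19-fold higher). Sort1 was compared only through its exposed signal, which fixed its sign as positive, and it is counted among the 5.

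The bulk of the lysosome differed little. The 25 hydrolases and membrane proteins had a median of 0 (12 positive, 12 negative), from Npc1 at -0.46 and Galc at -0.35 to Dnase2a at 0.28 and the ceramidase Asah1 at 0.29, and the bright cholesterol carrier Npc2 gave 3574.0 and 3885.4, with Laptm5 at 0.05. The 16 proton pump genes had a median of -0.0056, from -0.19 for Atp6ap1 and Atp6v1g1 to 0.25 for Atp6v0d1 and 0.31 for Atp6v1a, with Atp6v1f at -0.14 and Atp6v0e at -0.0085. By brightest probe set neither list held a 2-fold difference. Among all their probe sets compared, 1 of 51 and 1 of 32 were at least 2-fold lower, beside 0.691% of all 20258. These were of Lamp2 (407.6 and 186.2, beside 302.4 and 302.7 on its brightest one) and of the dim Atp6v1e1 (57.4 and 24.8, beside 537.4 and 522.5).

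Of 12 lysosomal control genes, 9 were negative and 3 positive, with a median of -0.14, beside 48.2% positive over all genes compared. Mitf (17.3 and 15.2), among the 9, was above the floor in control only, which fixed its sign as negative. Rragd, a GTPase of the nutrient-sensing complex on the lysosome, was 2.39-fold lower but dim (41.4 and 17.3). Tfeb, the factor that drives lysosomal genes, gave 74.9 and 51.2 (log2 -0.55, like-level range -0.70 to 0.65). Its relative Tfe3 gave 0.21, the lysosomal channel gene Mcoln1 0.13, Lamtor1 -0.13 and Lamtor3 -0.034.

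The partners of cathepsins S and L in class II antigen presentation were lower beside Ctss and Ctsh. Of 9 genes, 8 were negative, with a median of -0.63. By brightest probe set, 1 was past 2-fold, H2-Ob (124.1 and 58.9, 2.11-fold lower). H2-DMb2 gave 348.4 and 206.5 on its brightest probe set, but its others gave 296.9 and 79.5, and 349.5 and 150.3, and the 3 averaged -1.29 ± 0.58 (SD). Cd74, the invariant chain cleaved by cathepsin S, gave 1448.2 and 1250.3 (log2 -0.21, at the edge of its like-level range of -0.22 to 0.31). H2-Aa gave 1437.6 and 1080.8, and Ciita, the class II activator, was dim (24.6 and 26.0). These are genes of antigen-presenting cells, among them B cells, whose markers were mostly lower too. The markers of macrophages and dendritic cells were dim and mixed in sign. The part of any such cells in these values was not tested.

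The granule proteases that cathepsin C activates, listed with the granule partners Prf1, Srgn and Nkg7, centred near 0. Of 12 genes, 7 were above the floor, 4 positive and 3 negative, with a median of 0.016 and none 2-fold different. Gzmb gave 5632.9 and 6096.3 (log2 0.11), Gzma 3714.7 and 4122.5 (0.15), the granule proteoglycan gene Srgn 4685.0 and 4561.6 (-0.04) and the perforin gene Prf1 428.1 and 360.6 (-0.25). A further list held 4 genes, namely other T-cell genes that carry or carried a CTLA name without resembling CTLA-2 (Ctla4 and both granzymes) and Cd28, the relative of Ctla4. All 4 were positive (median 0.13), with Cd28 at 1658.9 and 2319.2 (0.48) and Ctla4 at 1493.3 and 1542.0 (0.05), besides the granzymes above.

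**Figure D4:**
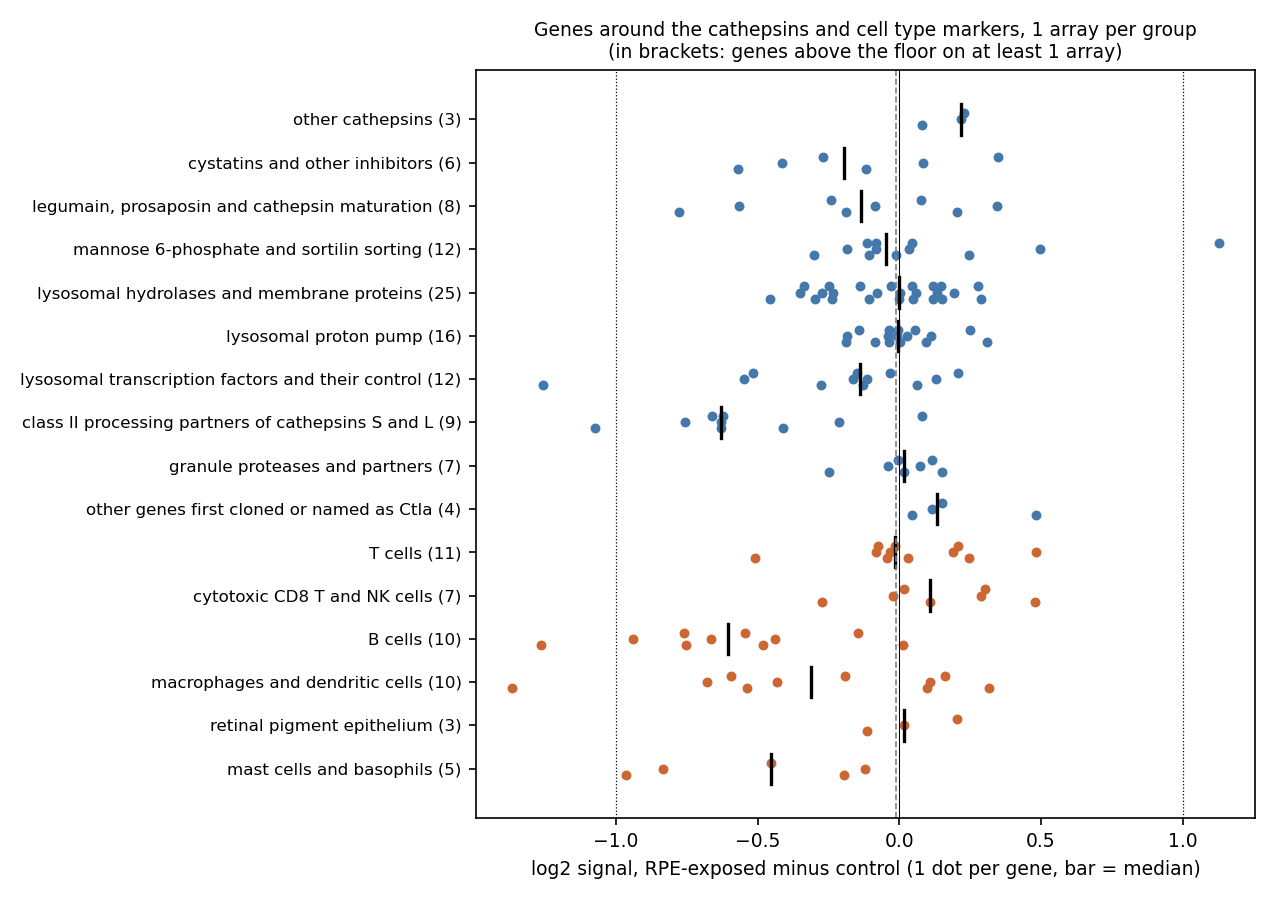
Log2 difference, RPE-exposed minus control, of each gene above the floor on at least 1 array, by list (blue pathway lists, orange cell type markers, 1 dot per gene, black bar the median, dashed line the median of all genes, dotted lines 2-fold). Class II partners (median -0.63) and B-cell genes (-0.60) sit to the left, while lysosomal hydrolases (0) and proton pump genes (-0.0056) centre on no difference.

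The genes most like the Ctla2 pair over these 2 arrays were those next to them in log2 difference among 6524 genes above the floor on both arrays and reaching a signal of 100. Ctla2b ranked 4 there, below Tank (114.0 and 401.5, log2 1.82) and Atp5md (319.7 and 900.7, 1.49) and above Selenow (250.2 and 646.3, 1.37) and Emp1 (72.6 and 181.6, 1.32). Ctla2a ranked 15, below Cep85 (1.02) and Xaf1 (0.99) and above Fam174c (0.96) and Bcat1 (0.95). With 2 arrays this likeness is only a similar size of difference.

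The member differences kept their sign under every processing choice tried that kept them in the comparison. Ctla2b was past 2-fold in all 8 alternatives, with log2 differences from 1.36 to 1.46. Ctla2a ran from 0.96 to 1.01 over 7 and passed 2-fold in 1, median centring. Only the changes of offset and scaling could move these values. Both probe sets were above every floor tried and were the only ones of their gene. The other settings therefore left them as they were, with 1 exception. Dropping names ending in x, s or a removed the Ctla2a probe set, which has 7 alternatives for that reason. Ctsh stayed between -0.66 and -0.60 on its brighter probe set, and Ctsl between -0.20 and -0.17. With the probe sets of a gene averaged they gave -0.56 and -0.098, the latter with a Ctsl probe set under the floor.

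**Figure D5:**
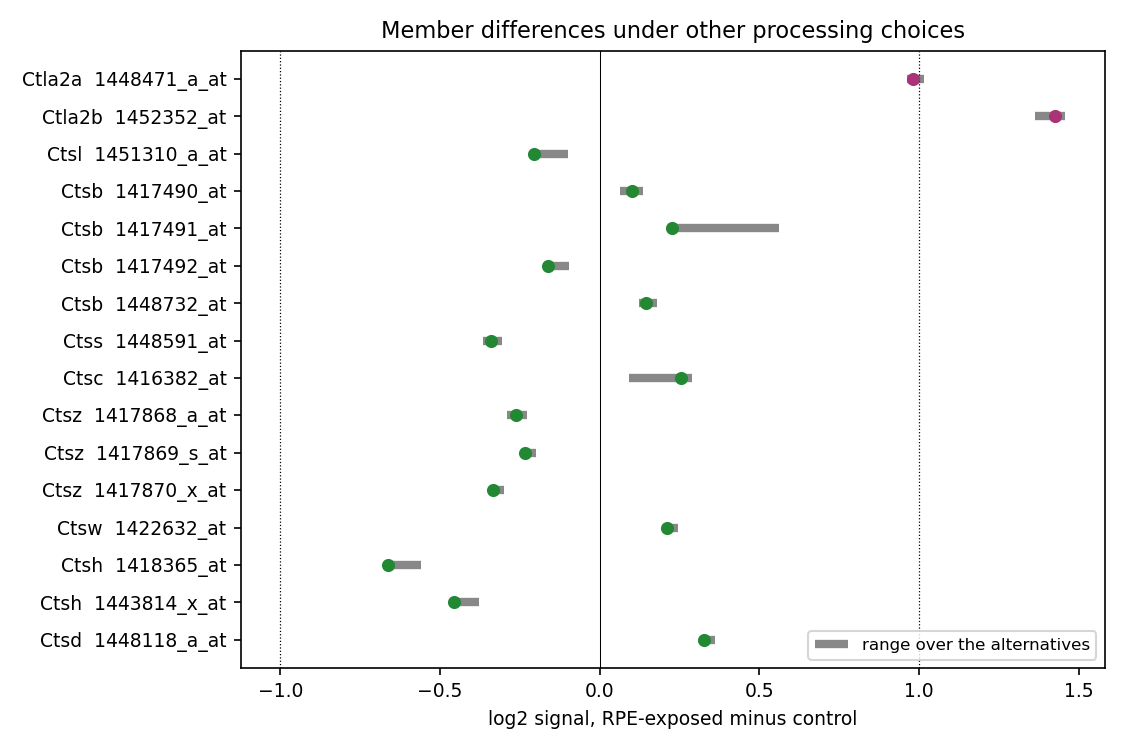
Log2 difference, RPE-exposed minus control, of the 16 member probe sets above the floor on at least 1 array (dots), with the range over the alternative processing choices (grey bars) and 2-fold as dotted lines. No bar crosses 0, and only the Ctla2 bars reach the 2-fold line.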

How the data were processed

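RNA of 2 samples was measured on 1-colour Affymetrix arrays after conversion to biotin-labelled cRNA, per the labels' protocols. The deposited values are linear intensities, 1 per probe set. The mean without the lowest and highest 2% was 100 on each array, so the authors had already scaled them, and the summarization software is not given in the sources used here. From these, log2 signals were computed (Python 3.11.15, pandas 2.3.3, numpy 2.4.6) after signals below the floor, the median of an array without its control probe sets, were raised to it. In the lists a gene's brightest probe set by mean log2 signal stood for it. Like-level ranges used 20 classes of mean level. Symbols came from the platform annotation (34945 probe sets with 1 gene, 932 with several, 9160 with none), and the gene identifiers of all 10 members were found in RefSeq GRCm38.p6. Windows were aligned with Biopython 1.88, and plots drawn with matplotlib 3.10.9. The steps were tested on simulated data. Members and lists were chosen with earlier results of these data known. The genes named were every member, the 2 genes on either side of each Ctla2 gene by difference, and in each list the 2 highest, 2 lowest and 2 brightest above the floor on both arrays. The RPE, mast-cell and basophil markers, the macrophage markers that crossed the floor, and the genes and probe sets past 2-fold were added after their values were seen. The chromosomal neighbours were also chosen after the files were seen. Alternatives changed the floor, offset, scaling and choice of probe sets.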

Additional observations from a re-analysis of the deposited data

How the results depend on the processing

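Over 111 values of the 16 member probe sets under 8 alternatives, no sign changed and 108 moved by less than the SD among probe sets of a gene at that level. The other 3 were the dim Ctsb probe set 1417491_at (0.56 both with no floor and with the 25th percentile as floor) and Ctsc (0.091 with its probe sets averaged, since the others lie under the floor). Many of the 111 values could not differ from the main one. A floor below both signals, or dropping other probe sets, leaves the value of a probe set as it was. The count of member probe sets at least 2-fold higher was 1 in each setting except median centring, where it was 2. The counts over all probe sets, 103 higher and 140 lower, depended on the floor and on the probe sets: they were 1238 and 1139 with the 25th percentile as floor, 12 and 29 with the 75th, 3240 and 2986 with no floor, 64 and 82 with an offset of 16, 66 and 87 when names ending in x, s or a were dropped, and 23 and 54 with probe sets averaged. Scaling moved the counts over all probe sets less, to 117 and 123 with median centring and 114 and 127 with quantile normalization. Of 16 list medians, 6 changed sign in some setting, among them the other cathepsins (-0.0014 with the 25th percentile as floor). No paired analysis was possible because each group has 1 array. Signals near the floor of 16 have little precision, which limits the dim Ctsb probe sets and the macrophage genes.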
